A study of Mus musculus with 4 samples.

Results

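The cells described here were enterocytes of the villus-tip type, found in single-cell RNA sequencing of mouse small intestinal adenomas and chosen by the UMI counts of 3 genes, Ada, Slc28a2 and Clca4a. A droplet barcode with at least 2000 unique molecular identifiers (UMIs, each counting 1 captured RNA molecule), at least 200 genes and at most 20% mitochondrial UMIs was kept when each of the 3 genes had at least 1 UMI, their sum was at least 6 UMIs, Prox1, Notum and Nkd1 together had at most 1 UMI, and Ptprc, the pan-leukocyte gene, had 0. The rule held for 371 of 11263 barcodes, which was 3.29% of all barcodes and 3.61% of the 10281 epithelial barcodes (Epcam at least 1 UMI, or a member of the tip class). Of 412 barcodes that passed on Ada, Slc28a2 and Clca4a, 34 exceeded the limit on the Wnt-target genes, 9 held Ptprc, and 2 of these did both. Levels of the genes in the rule are given as a description and carry no test.

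The study compared adenomas of ApcMin mice (ApcMin/+;Lef1 +/+) with those of VApcMinL mice (ApcMin/+;Lef1 fl/fl;Villin-Cre), which lack Lef1 where Cre was active, with 2 libraries of each. All mice were C57BL/6 on the labels, carried 1 ApcMin allele, were 11 weeks old and were labelled male. Villin-Cre is active in the intestinal epithelium and not in the stroma or blood cells of the tumor. For each library 3 to 10 tumors of similar size and position were pooled, dissociated and run unsorted on the 10x 3′ platform, replicate 1 of each genotype with kit version 2 and replicate 2 with kit version 3. The labels do not tie a library to named animals, so the p-values below measure the spread between these libraries, which may be partly technical.

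The intestinal villus is covered by enterocytes that are born in the crypt, move upward over a few days and are shed at the tip. On the way their program changes: antimicrobial genes are used near the base, transporters and digestive enzymes for sugars and peptides in the middle, and genes for lipoprotein assembly, purine breakdown and cell adhesion at the tip. Ada encodes adenosine deaminase, which turns adenosine into inosine, Slc28a2 encodes a concentrative nucleoside transporter, and Clca4a encodes a secreted regulator of chloride channels.

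Members were found in all 4 libraries: 22 in ApcMin replicate 1, 112 in VApcMinL replicate 1, 150 in ApcMin replicate 2 and 87 in VApcMinL replicate 2. Below, values listed for 4 libraries follow this order. Their median depth was 10907.5, 13207, 19135.5 and 8136 UMIs, against 10510, 11527, 27212 and 17299.5 UMIs in the other enterocyte barcodes of the same libraries. The UMIs summed over all members came to 258614, 1831234, 3521475 and 1083419, so ApcMin replicate 1 gave the least precise levels. Kit version 2 libraries shared 9 barcodes with each other, ApcMin replicate 1 shared 1 with VApcMinL replicate 2, and none of the shared barcodes was a member. Barcodes were ranked by the score of Scrublet, a doublet caller, and the top ones marked at an assumed doublet rate of 0.8% per 1000 barcodes, which took in 0, 1, 4 and 1 of the members. Scrublet's own threshold called 12, 21, 7 and 2 barcodes in the whole libraries. The marked members were kept in the main values.

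Lef1, the gene deleted in VApcMinL mice, had 0 UMIs in the members of all 4 libraries. With the 3-count limit that a count of 0 allows, this bounds Lef1 at 11.6, 1.64, 0.853 and 2.77 UMIs per 1000000 UMIs of the class (CPM). The tip class therefore does not check the genotype labels. In the other epithelial barcodes Lef1 stood at 4.62, 10.9, 9.84 and 15.3 CPM, higher in the library labelled VApcMinL within each kit. These are 3′ UMIs of the whole gene, and whether they lie in the deleted part was not analysed here, so they do not check the labels either, and the genotype names below are those of the labels. The male label was not met in the libraries labelled VApcMinL. Of the members, 0, 108, 0 and 32 held UMIs of Xist, the X-inactivation RNA of female cells, while UMIs of Y-linked genes without Xist were found in 10, 0, 106 and 30. Of the 32 in VApcMinL replicate 2, 24 held Xist alone and 8 held both.

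The members were set against 2 other classes of the same libraries. The first was all 9910 other epithelial barcodes, from adenoma and crypt cells to goblet cells and other enterocytes. The second was 2492 other enterocyte barcodes (331, 588, 953 and 620), which met the Wnt and Ptprc limits and held Anpep, Fabp2 and Mttp with at least 1 UMI each and 6 in sum. Of the members 111 would have passed that enterocyte gate. UMIs were summed per class and library and tested across the 4 libraries with edgeR's quasi-likelihood test with the library as a block, and p-values were adjusted over all genes tested by the Benjamini-Hochberg method. Genes outside the rule were measured in the same barcodes that the rule picked, so these contrasts describe what goes with the 3 genes and do not show independently that a separate cell type exists.

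The label of the cells was held against their markers first. Ada had 2706, 4163, 2685 and 4333 CPM in the members and 14.4, 127, 39.2 and 29.8 CPM in the other enterocyte barcodes. Slc28a2 had 828, 769.9, 738 and 751 CPM, and Clca4a had 1924, 1447, 2568 and 2488 CPM. These levels were set by the rule. Of the 4 markers given for these cells that the rule did not use, every one was higher in the members of every library.

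Duox2 encodes the hydrogen peroxide producing dual oxidase of the gut surface, and Duoxa2 its maturation factor. Duox2 stood at 348, 581, 543 and 170.1 CPM in the members against 13.0, 39.5, 32.8 and 9.65 CPM in the other enterocyte barcodes. Its log2 fold change was 4.41 ± 0.14 (SE of the edgeR fit to 4 libraries, adjusted p = 4.17e-09). Here and below, the SE of a log2 fold change is its absolute value over the square root of edgeR's F statistic. It does not measure the spread of the differences between single libraries. Duoxa2 stood at 356, 551, 754 and 258 CPM against 13.0, 28.4, 29.0 and 6.51 CPM (log2 fold change 4.99 ± 0.18). The classes did not overlap for either gene, and VApcMinL replicate 2 was the lowest member sum for both. The genes are neighbours on chromosome 2 (GRCm38, GENCODE vM21): Duox2 lies at chr2:122279247-122298449 on the minus strand and Duoxa2 at chr2:122298900-122302885 on the plus strand, with 450 bases between their starts, and Slc28a2 begins 128027 bases beyond Duox2. Of the 7 genes tested within 250000 bases of the start of Duox2's interval, Slc28a2 belongs to the rule, and beside the oxidase pair Shf was higher (log2 fold change 1.45), the sorbitol dehydrogenase gene Sord was lower (-1.58), and Spg11 and B2m were not called. This stretch was looked at after the values were seen.

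Gprc5a, an orphan receptor of epithelia, had 677, 587, 394 and 365 CPM in the members against 11.3, 40.4, 13.6 and 8.82 CPM (log2 fold change 5.17 ± 0.25). Pmp22, a tetraspan membrane protein of epithelial junctions and myelin, had 732, 1059, 949 and 797 CPM against 11.8, 68.8, 106 and 71.6 CPM (log2 fold change 4.24 ± 0.32). Both were separated between the classes in all 4 libraries. The other enterocyte barcodes held less Ada than barcodes of 10 to 100 UMIs, which are mostly empty droplets and had 161, 572, 157 and 82.8 CPM. In the ApcMin libraries those small barcodes also held 222 and 203 CPM of Xist, against 0.127 and 0.220 CPM in the other epithelial barcodes. Their levels therefore do not measure the free RNA that reached the classes compared here.

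**Figure D1:**
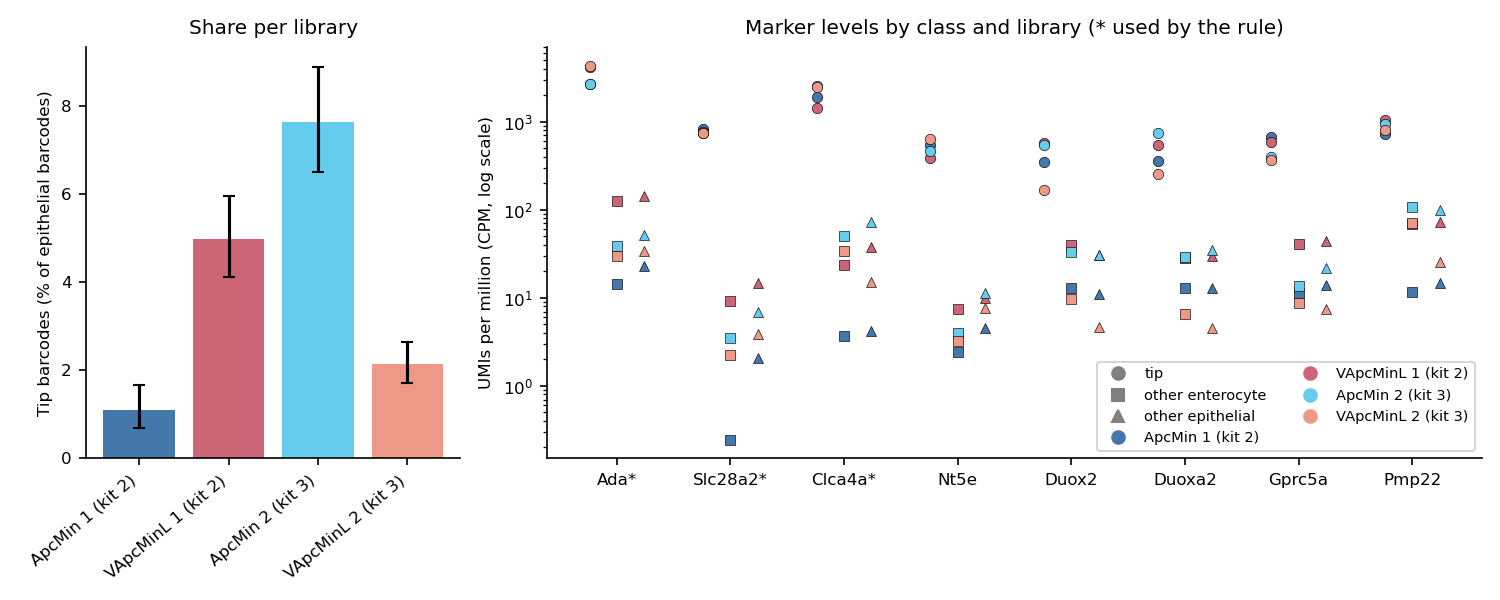
Left, share of epithelial barcodes that met the tip rule in each library, with exact 95% binomial intervals. Right, level of the 7 given markers and Nt5e in CPM (log axis) for the summed tip (circles), other enterocyte (squares) and other epithelial barcodes (triangles) of each library. Genes with an asterisk are in the rule, and for Nt5e the tip sums lay between 387 and 640.4 CPM while the other enterocyte sums lay between 2.45 and 7.53 CPM.

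The rule has a threshold, and members close to it were unlike the bulk. Barcodes whose 3 genes summed to 3 to 5 UMIs and that met every other part of the rule numbered 10 and held 102 CPM of Ada, 837 CPM of Krt20 and 2035 CPM of Apoa4. The 15 members with a sum of 6 to 8 held 95.4 CPM of Ada, 1517 CPM of Krt20 and 2721 CPM of Apoa4, and had a median of 31481 UMIs. The 356 members with a sum of 9 or more held 3628, 4409 and 22960 CPM of the same genes. Members just inside the threshold were thus deep barcodes with low levels.

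Members also varied widely above it. The 3 rule genes together made up a median of 58.1, 75.6, 67.2 and 81.2 of every 10000 UMIs of a member, and ranged from 0.567 to 489.6 over all members. Ada spread the most of the 3: in VApcMinL replicate 1 it ranged from 0.324 to 293.9 per 10000 UMIs with a median of 38.0. With every member thinned to 2000 UMIs, the variance over mean of 893 genes had a median of 1.22, and that of Ada was 18.0 and that of Apoa4 31.7. This ratio also grows with the mean, which was 10.4 UMIs for Ada and 57.3 UMIs for Apoa4, so it does not order genes of unequal level.

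Against all other epithelial barcodes, 7471 of 12892 genes were called, which is 58.0 percent, with 3002 higher (23.3 percent) and 4469 lower (34.7 percent) in the members. Genes called and at least 2-fold higher made up 15.9 percent, genes at least 2-fold lower 28.4 percent, and the median log2 fold change of all genes was -0.41, so changes are read against that shift. The members' largest rises were Nt5e (6.43 ± 0.27 on the log2 scale), the Ly6 family gene 2010109I03Rik (6.42 ± 0.40), Gml (6.06), Gml2 (6.05), Duoxa2 (5.26) and 2610528A11Rik (5.25). The largest falls were nearly all Paneth cell antimicrobial genes, among them AY761184 (-5.99), Gm14851 (-5.64) and Defa22 (-5.42), whose near-identical family members can share reads, together with the gut hormone gene Cck (-4.43).

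Proliferation and stem cell genes were low in the members. Of 20 cell cycle genes 19 were lower and 0 higher than in the other epithelial barcodes, with a median log2 fold change of -2.28. Of 18 crypt stem and Wnt genes 15 were lower and 2 higher (median -2.14), and of 10 stomach-type genes that adenomas express 8 were lower and 1 higher (median -2.68). On the other side, 17 of 18 microvillus genes, 19 of 20 keratin and junction genes and 14 of 19 genes of lipid absorption were higher, with medians of 1.81, 1.96 and 1.51. The Wnt-target limit of the rule was set on the members only, while adenoma cells stayed in the other class. It therefore bears on all these lists, the cell cycle and stomach-type genes among them, and its part was not tested.

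The closer comparison was with other enterocytes. Here 5332 of 9680 genes were called, 55.1 percent, with 2551 higher (26.4 percent) and 2781 lower (28.7 percent) in the members, and the counts of each list below are read against these shares. Genes called and at least 2-fold higher made up 13.5 percent and genes at least 2-fold lower 16.1 percent, and the median log2 fold change of all genes was -0.11. Anpep, Fabp2 and Mttp chose the comparison class and carry no test. The members did not have to hold them, so this gate also bears on genes that go with them. Its part in the lists below was not tested. Mttp, which loads lipid onto apolipoprotein B, was at 887, 756, 853 and 630.3 CPM in the members and 922, 1044, 964 and 716 CPM in the other enterocyte barcodes, while Anpep, aminopeptidase N, was at 232, 27.9, 149 and 132 CPM against 704, 708, 969.6 and 596 CPM.

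The largest rise of all was Nt5e, which encodes CD73, the surface enzyme that makes adenosine from AMP. Nt5e had 538, 387, 464 and 640.4 CPM in the members and 2.45, 7.53, 4.00 and 3.22 CPM in the other enterocyte barcodes. The classes were far apart in every library, with a fitted fold of 139.6 (log2 fold change 7.13 ± 0.29, adjusted p = 1.54e-08). With each barcode thinned to 2000 UMIs, 36.4 to 69.0% of members and 0.302 to 1.19% of other enterocyte barcodes held an Nt5e UMI, and unthinned 72.7 to 86.2% of members did. Immune barcodes (Ptprc at least 1, Epcam 0), a class in which lymphocytes can carry CD73, held it in 5.88 to 20.6% after thinning. Nt5e lies at chr9:88327197-88372092 (GRCm38, plus strand).

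Ly6 and Gml genes, which encode small surface proteins mostly held by a lipid anchor, were the next. 2010109I03Rik stood at 2582, 3866, 3291 and 3064 CPM in the members and 10.3, 87.6, 32.3 and 29.9 CPM in the other enterocyte barcodes (log2 fold change 6.87 ± 0.32), and after thinning 84.0 to 93.1% of members held it against 1.51 to 5.44% of other enterocyte barcodes. Gml rose by 5.52 ± 0.31, Gml2 by 5.51 ± 0.34 and Ly6d by 5.47 ± 0.34 on the log2 scale. Ly6d differed among the member sums, with 2005, 898, 522 and 1951 CPM, all above the 17.4 to 45.1 CPM of the other class. These 4 of the 10 largest rises lie together on chromosome 15, within the interval from Ly6d at chr15:74762056-74763620 to 2010109I03Rik at chr15:74876987-74897021. Within 1000000 bases on either side of the start of the 2010109I03Rik interval 11 of 40 annotated genes could be tested. Beside the 4 that led to the window, Lynx1, Zc3h3 and Gsdmd rose and BC025446 and Top1mt fell. The neighbours Ly6e (log2 fold change -0.10 ± 0.29) and Ly6a (1.01 ± 0.51) were not called. That window was drawn after the values were seen.

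Adhesion and epithelial barrier genes made up much of the rest of the leading rises. Lama3 encodes a chain of the laminins that anchor epithelium to the basement membrane. It had 186, 180.4, 321 and 390.0 CPM in the members against 1.47, 14.8, 13.1 and 7.50 CPM, so that the groups did not overlap. Sprr1a, a cornified envelope gene also used by stressed gut epithelium, rose by 5.10 ± 0.38 on the log2 scale. Lamb3, another laminin chain gene, looked up after these values were seen, rose by 3.82 ± 0.21.

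Of 20 keratin and junction genes 19 rose and 1 fell, with a median log2 fold change of 1.61 against -0.11 for all genes. The claudin gene Cldn4 had 921, 933, 592 and 641 CPM in the members against 81.5, 67.0, 18.4 and 25.8 CPM (log2 fold change 4.48 ± 0.27). Krt8, the most abundant member of the list with 8943, 8862, 9898 and 9209 CPM, was at 2374 to 3187 CPM in the other class (log2 fold change 1.91 ± 0.15). Krt7 rose by 3.29 and Krt18 by 2.94, and Krt20, the keratin of mature enterocytes, rose by 2.81. The exception was Cldn15, which forms the sodium-permeable pore of the gut tight junction, with 42.6, 77.1, 94.7 and 62.8 CPM in the members against 212 to 257 CPM (log2 fold change -1.41 ± 0.17). Epcam, a rule gene only through the epithelial denominator, stood at 3740, 3660, 4700 and 5255 CPM in the members and 1582 to 2489 CPM in the other class.

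All 12 genes of a list of villus-tip genes outside the rule rose, with a median log2 fold change of 3.54. The list was drawn with earlier results of these data known and holds the 4 markers and Nt5e, so it is no independent support. Its smallest rise was Creb3l3, a transcription factor of triglyceride handling, with 0.93 ± 0.13. Egfr, the epidermal growth factor receptor, had 170.3, 74.4, 99.0 and 153 CPM in the members against 6.27 to 9.16 CPM (log2 fold change 4.20 ± 0.22), and Klf4, a factor of terminal differentiation, had 689, 624, 702 and 435 CPM against 136 to 236 CPM (2.02 ± 0.14).

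**Figure D2:**
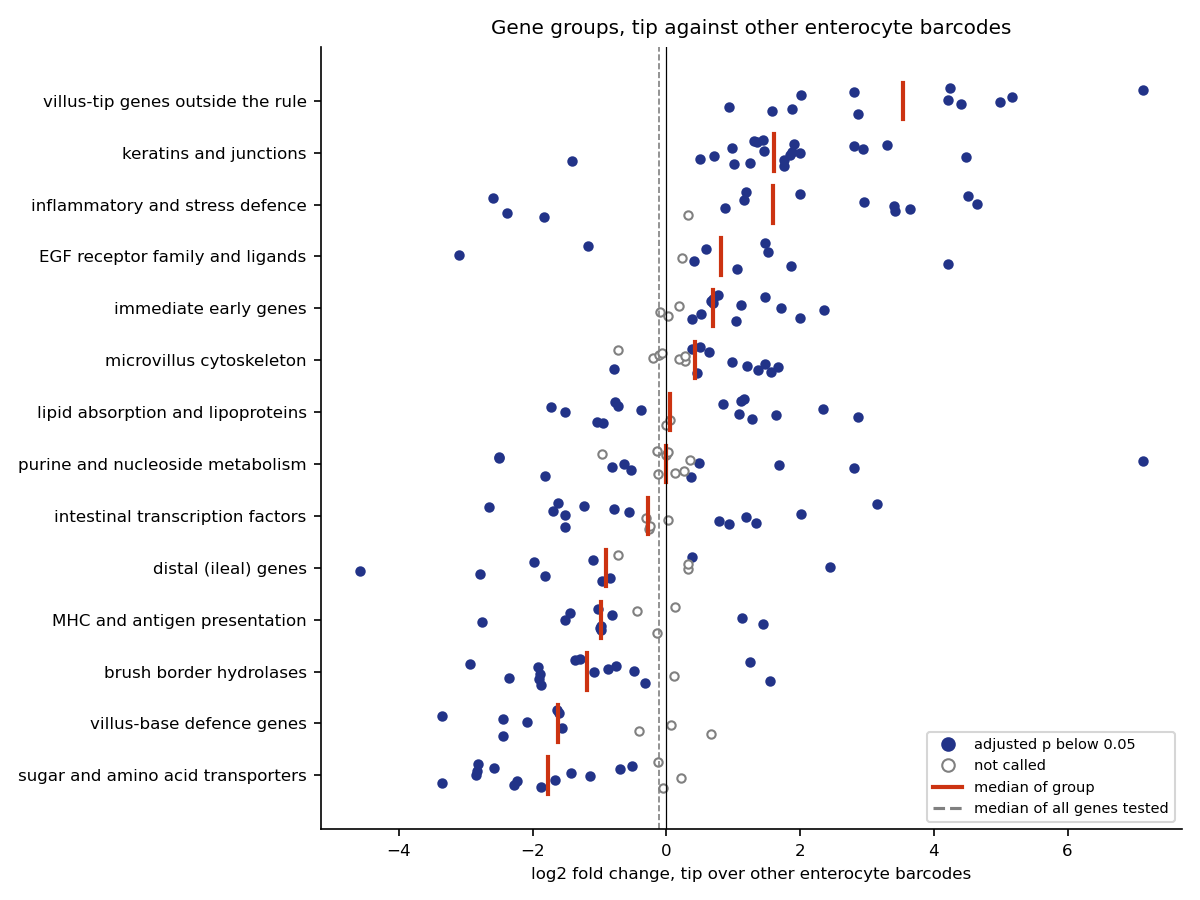
Log2 fold change of each tested gene of 14 gene lists in the members against the other enterocyte barcodes of the same libraries, from edgeR's quasi-likelihood fit. Filled points passed an adjusted p of 0.05, open points did not, red bars are list medians and the dashed line is the median of all genes tested, -0.11. Keratin and junction genes lie almost entirely to the right and sugar and amino acid transporters to the left, with medians of 1.61 and -1.78.

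Lipid absorption genes split. Of 17 tested, leaving out the gated Fabp2 and Mttp, 8 rose and 7 fell, and the median log2 fold change was 0.05. Apolipoprotein genes rose: Apoa4 had 17986, 23296, 19615 and 24845 CPM in the members against 2736, 5348, 3375 and 2778 CPM (log2 fold change 2.87 ± 0.19), and Apoa1, the most abundant, had 16941 to 28816 CPM against 8412 to 12524 CPM (1.27 ± 0.17). Apob, the scaffold of chylomicrons, rose by 1.65 ± 0.16, and Dgat2, which makes triglyceride, by 2.34 ± 0.13. The fatty acid carriers of uptake fell: Fabp1 had 3682, 2323, 7106 and 3879 CPM against 14926, 15148, 18078 and 13146 CPM (-1.72 ± 0.22), and Cd36 had 3.87 to 17.1 CPM against 38.0 to 54.8 CPM (-1.51 ± 0.20). Members of the list with different roles thus moved in opposite directions.

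Transporters of nutrients were lower. Of 16 sugar and amino acid transporters 13 fell and 0 rose, with a median log2 fold change of -1.78. With the second enterocyte gate described below 14 of 16 fell and 0 rose (median -1.75). Slc2a2, which encodes the basolateral glucose transporter GLUT2, had 15.5, 8.75, 7.11 and 0.924 CPM in the members against 38.7, 92.6, 87.3 and 89.1 CPM (log2 fold change -3.35 ± 0.30), the lowest of the list. The sodium-glucose transporter gene Slc5a1, named after its values were seen, had 81.3 to 149 CPM against 222 to 438 CPM (-1.43 ± 0.16). The cystine transporter gene Slc7a9, at 83.1 to 118 CPM the most abundant of the list in the members, did not pass the test (-0.12 ± 0.12).

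Brush border hydrolases fell in 13 and rose in 2 of 16 cases, with a median of -1.18. Sis encodes sucrase-isomaltase, and had 19.4, 20.2, 184 and 165 CPM in the members against 419, 359, 1106 and 1148 CPM (log2 fold change -2.94 ± 0.27). After thinning 0 to 22.7% of members held a Sis UMI against 49.5 to 79.1% of other enterocyte barcodes, and unthinned 4.55 to 59.3% did. The lactase gene Lct fell by 1.89 on the log2 scale. The exceptions were Alpi, intestinal alkaline phosphatase, with 2036, 1531, 1081 and 1090.5 CPM against 435 to 909.8 CPM (1.54 ± 0.18), and Tmprss15, enteropeptidase, with 1.25 ± 0.23. Microvillus cytoskeleton genes moved differently: of 18 tested 10 rose and 1, Cobl, fell by 0.79 (with a mitochondrial limit of 10% it was at -0.13 and not called), with a median of 0.42, and Eps8, which caps actin, rose by 1.67 ± 0.12.

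Defence genes divided by kind. Of 10 genes of the villus base 7 fell and 0 rose (median -1.62), among them Reg3a, an antimicrobial lectin, with 3.28 to 71.4 CPM in the members against 143 to 628 CPM (log2 fold change -3.36 ± 0.28). Lypd8, which keeps bacteria from the epithelium and was the most abundant of that list with 1557 to 3430.0 CPM, was not called (0.07 ± 0.18). Of 14 inflammatory and stress genes tested 10 rose and 3 fell (median 1.59). The list holds 22 genes, and Cxcl1, Cxcl5, Il1a, Lcn2, Ptgs2, Saa1, Saa2 and Saa3 did not pass the expression filter. Il1rn, the interleukin 1 receptor antagonist, had 205, 122, 89.6 and 81.3 CPM against 6.61, 17.9, 3.05 and 1.15 CPM (4.65 ± 0.38), and the pyroptosis gene Gsdmd had 239.5 to 365 CPM against 134 to 247 CPM (0.88 ± 0.13). Pigr, the receptor that carries IgA to the lumen, went the other way with 166, 299.6, 236 and 273 CPM against 1734, 2357, 1559 and 1461 CPM (-2.60 ± 0.19). Other rises of this list, named after their values were seen, were Plaur (4.52), Cxcl16 (3.41) and Il33 (2.96).

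Of 13 genes of antigen presentation 8 fell and 2 rose, with a median of -0.98. With a mitochondrial limit of 10% 1 of 12 fell and 3 rose (median -0.056), and with the rule applied after thinning 4 of 13 fell and 3 rose (-0.46). In the main fit both rises were classical class I genes, H2-D1 (665 to 929 CPM against 279.6 to 413 CPM, log2 fold change 1.45 ± 0.15) and H2-K1 (1.13 ± 0.16), while the class II loading gene H2-DMa, at 7.74 CPM or less in the members, fell by 2.75 ± 0.57.

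Purine metabolism is the field of Ada and Slc28a2. Of 19 genes of its list tested outside the rule 5 rose and 6 fell, with a median of -0.0021, which is near the shares over all genes. With a mitochondrial limit of 10% 9 of 17 rose and 3 fell (median 0.52). Nt5e led the rises, followed by the ectonucleotidases Enpp3 (147, 161, 466 and 333 CPM against 9.30 to 82.1 CPM, log2 fold change 2.81 ± 0.24) and Entpd8 (1.69 ± 0.14), which were named after their values were seen. Those are surface enzymes that break down extracellular nucleotides. The other concentrative nucleoside transporters fell, Slc28a3 by 2.51 ± 0.37 and Slc28a1, which was also named after its values were seen, by 2.50 ± 0.24. The salvage gene Aprt was the most abundant with 499 to 679 CPM and was not called (0.26 ± 0.13).

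Among 8 epithelial oxidase genes, 3 rose and 5 fell (median -1.17). Beside Duox2 and Duoxa2, the NADPH oxidase subunit gene Cyba rose by 0.35. The largest fall was Maob, a monoamine oxidase, with 0, 3.28, 10.2 and 11.1 CPM in the members against 79.6, 80.0, 125 and 98.5 CPM (log2 fold change -3.45 ± 0.24), and Maoa fell by 3.08 ± 0.28. In this list Duox2 and Duoxa2 moved against the amine oxidase genes Maoa, Maob and Aoc1. Noxo1 and Noxa1, which like Cyba serve NADPH oxidases, fell too.

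Growth factor and death genes changed too. Of 10 genes of the EGF receptor family and its ligands 7 rose and 2 fell (median 0.82). Hbegf, the most abundant ligand gene with 557, 465, 289 and 262 CPM, overlapped the other class at 573, 432, 168 and 184 CPM and rose by 0.59 ± 0.17 in the fit (adjusted p = 0.0120), a call lost without ApcMin replicate 2 (0.40) or VApcMinL replicate 2 (0.52) and in the kit version 2 pair alone (0.20). Ereg, another ligand gene, fell by 3.11 ± 0.85 but reached at most 3.87 CPM in the members and was not called in the kit version 2 pair alone (-1.09). Of 15 immediate early genes 12 rose and 0 fell (median 0.70), from Fosl1 with 2.36 ± 0.43 to Fosb, which was not called (-0.10 ± 0.12). Fos, the most abundant, had 1607, 1182, 826 and 727 CPM against 1069, 1146, 649 and 662 CPM (0.51 ± 0.13). It was not called after thinning to 2000 UMIs (0.15) or without ApcMin replicate 2 (0.45). Of 17 apoptosis and shedding genes 9 rose and 4 fell (median 0.83), with Casp8, the initiator caspase of death receptors, up by 1.84 ± 0.14, Mcl1, an inhibitor of apoptosis, up by 1.34 ± 0.13, and the death ligand gene Tnfsf10 down by 2.25 ± 0.25.

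Of 18 transcription factors of intestinal identity 6 rose and 8 fell (median -0.28), against 26.4 and 28.7 percent of all genes, and in the kit version 2 pair alone 5 rose and 5 fell (-0.43). Prdm1, encoding BLIMP1, had 73.6, 38.8, 41.5 and 49.0 CPM in the members against 4.16 to 9.16 CPM (log2 fold change 3.15 ± 0.23). Nr5a2, encoding LRH-1, had 0, 1.64, 2.27 and 5.54 CPM against 14.7 to 26.1 CPM (-2.65 ± 0.31). Of 13 genes of the BMP pathway, whose signal is strongest toward the villus tip, 5 rose and 2 fell (median 0.16), and after thinning 3 of 9 rose and 0 fell (median -0.046). Bmp2 had 65.8, 79.3, 115 and 61.0 CPM against 13.2 to 14.4 CPM (2.83 ± 0.18), the common target Id1 was not called (0.16 ± 0.12) and Id2 fell by 1.06 ± 0.18, a call lost with a mitochondrial limit of 10% (-0.64), after thinning (-0.76) and in the kit version 2 pair alone (-1.09).

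Iron genes rose in 6 and fell in 2 of 9 cases (median 0.49). After thinning 1 of 8 rose and 3 fell (0.28), against the second enterocyte gate described below 3 of 9 rose and 3 fell (0.088), and in the kit version 2 pair alone 2 rose and 2 fell (0.47). Cybrd1, the ferric reductase of iron uptake, had 217, 513, 194 and 68.4 CPM against 7.20 to 42.5 CPM (log2 fold change 3.71 ± 0.43), and Tfrc, the transferrin receptor of growing cells, fell by 2.0 ± 0.16. The ferritin gene Fth1, at 9179 to 12574 CPM, was not called (0.01 ± 0.16). Of 15 genes of ketogenesis and fatty acid oxidation 7 fell and 1, Acadl, rose (0.93 ± 0.14), with a median of -0.51, and Angptl4 fell by 1.83 ± 0.46, a call lost without ApcMin replicate 2 (-1.36) and in the kit version 2 pair alone (-1.21).

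Markers of position along the gut did not point one way. Of 12 proximal genes 6 rose and 5 fell (median 0.48), and of 12 distal genes 2 rose and 7 fell (median -0.91). Fabp6, the ileal bile acid binding protein, was the largest fall among genes with at least 50 CPM in the higher class (log2 fold change -4.58 ± 0.25). It was seen in the kit version 3 libraries, with 48.1 and 51.8 CPM in the members against 1743 and 1286 CPM, whereas in the kit version 2 libraries both classes stood at 1.38 CPM or less. The mucin gene Muc3, at 1699.5, 1956, 1342 and 1054 CPM, was the most abundant distal gene and rose (258 to 394 CPM in the other class, 2.44 ± 0.15). The pooled tumors came from similar but unnamed places in the intestine, so gut region and villus position cannot be told apart for these genes.

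Cell cycle and crypt genes followed no single direction over the settings within enterocytes. Of 20 cell cycle genes 11 fell and 1 rose (median -0.69), and of 13 crypt and Wnt genes 5 rose and 4 fell (median -0.11). Ephb3, a receptor of crypt positioning, rose by 2.47 ± 0.29 and the cyclin gene Ccnd2 fell by 1.78 ± 0.25. Of 8 stomach-type genes 2 rose and 0 fell, Anxa1 by 4.00 ± 0.17 and Clu by 1.56 ± 0.28. The cell cycle direction turned with the choice of comparison class: against enterocyte barcodes gated on Rbp2 and Prap1 (together at least 0.5% of UMIs) in place of Anpep, Fabp2 and Mttp, 11 of 18 cell cycle genes rose, 0 fell and the median was 1.16. That gate was added after the data were seen.

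Levels were next followed along the rule genes themselves, over the members and every barcode that met the Wnt and Ptprc limits and passed either enterocyte gate, the first or the one on Rbp2 and Prap1. Barcodes were put in 5 bins by Ada, Slc28a2 and Clca4a UMIs per 10000 UMIs (0, above 0 to 5, above 5 to 20, above 20 to 60, and above 60), holding 1198, 1132, 174, 159 and 211 barcodes of which 0, 17, 39, 103 and 190 were members. ApcMin replicate 1 was left out, since bins held fewer than 20 barcodes, and values are means of 3 libraries. Nt5e ran from 3.04 through 7.40, 61.6 and 234 to 991 CPM. Duox2 ran from 12.8 through 35.6, 189 and 463 to 536 CPM, and Krt20 from 676 through 834, 3101 and 4449 to 4612 CPM. Krt20 changed little between the last bins, whereas most of the rise of Nt5e lay between them. Duox2 differed by library there. It went from 696 to 607 CPM in VApcMinL replicate 1, from 594 to 690 CPM in ApcMin replicate 2 and from 99.3 to 312 CPM in VApcMinL replicate 2.

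Apoa4 rose along the bins from 3120 to 39133 CPM and Cldn4 from 23.4 to 992 CPM. Fabp1 fell from 15442 to 2298 CPM, Sis from 949 to 36.3 CPM, Pigr from 1885 to 195 CPM and Slc2a2 from 95.4 to 5.19 CPM. The mean of Fabp6 was between 644 and 994 CPM over the first 4 bins and 130.5 CPM in the fifth, but the libraries differed. VApcMinL replicate 1 held 1.73 CPM or less in every bin. ApcMin replicate 2 had 1772, 1434, 1950, 561 and 323 CPM. VApcMinL replicate 2 had 1207, 804, 193, 1369 and 68.0 CPM. The median depth moved with the bins in part: in VApcMinL replicate 1, ApcMin replicate 2 and VApcMinL replicate 2 it was 10388, 24987 and 16888.5 UMIs in the first bin and 10542.5, 12162 and 4647 UMIs in the last, and its part in these trends was not tested.

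**Figure D3:**
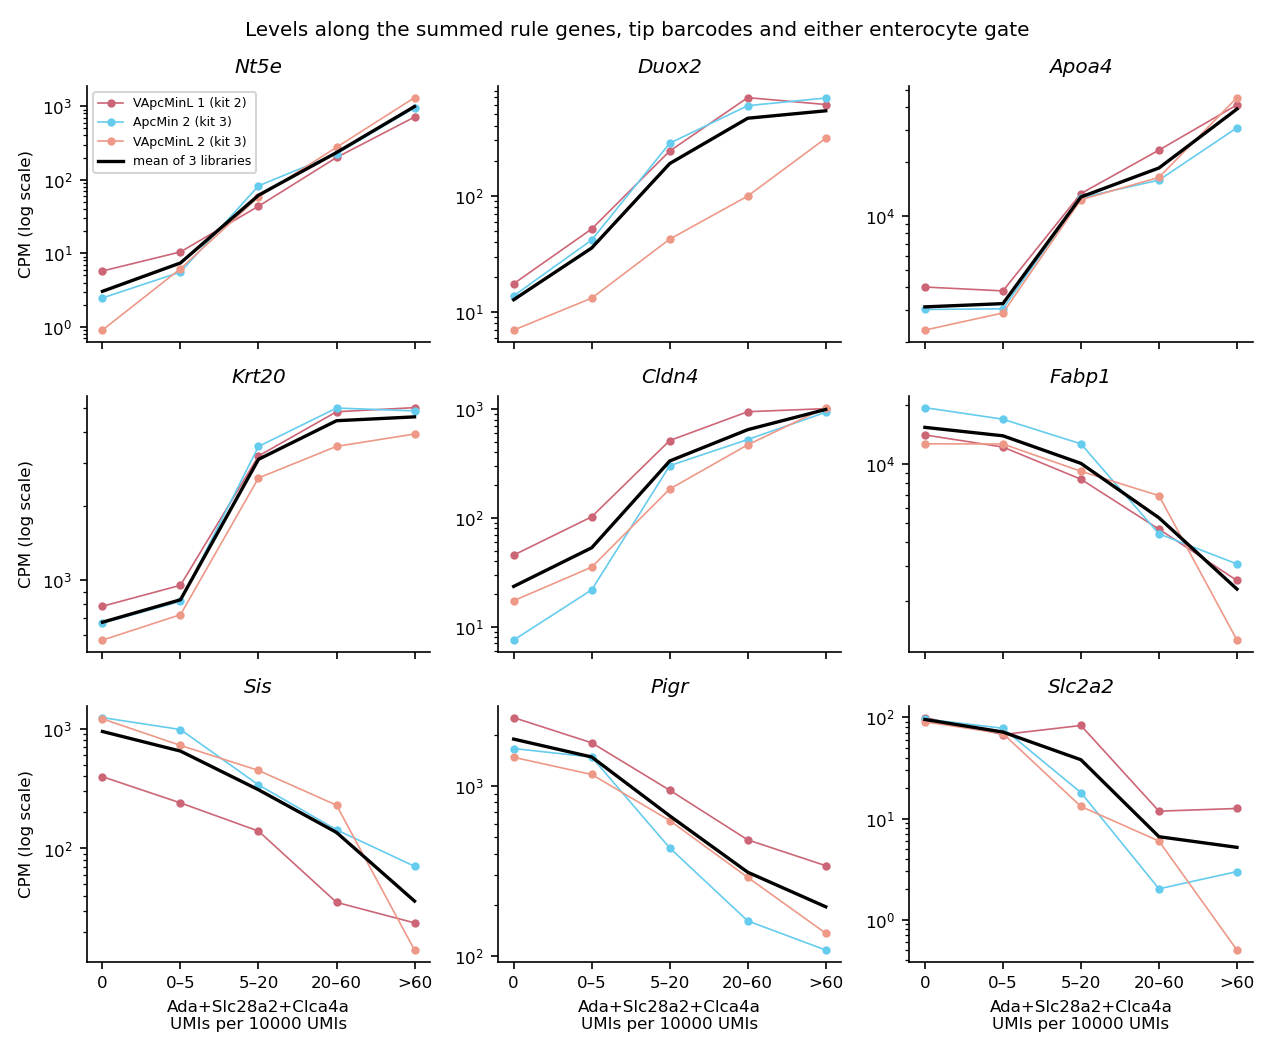
Level of 9 genes in CPM (log axis) in 5 bins of the summed rule genes, over members and barcodes of either enterocyte gate in 3 libraries. Thin lines are libraries and the black line is their mean. Nt5e, Duox2, Apoa4, Krt20 and Cldn4 were higher and Fabp1, Sis, Pigr and Slc2a2 lower in the last bin than in the first in each library shown.

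Markers of other cell types were also detected in the members. All 7 goblet markers were detected, with a summed level of 608, 2881, 11690 and 5795 CPM. In the other enterocyte barcodes they summed to 4174, 2555, 1690 and 2922 CPM. At least 1% of the UMIs of 9 members lay in them. The 5 members with the most Muc2 held 87.5, 91.4, 97.3 and 97.4% of its 8, 569, 3645 and 621 UMIs. In ApcMin replicate 1 the 8 UMIs lay in 6 members, so that share does not show concentration. All 5 measured Paneth markers summed to 180.2 to 479 CPM, against 143 to 3237 CPM in the other enterocyte barcodes, and the 6 enteroendocrine markers to 38.3 to 301 CPM. The 5 tuft markers were higher in the members, with 46.5, 22.4, 33.6 and 42.5 CPM against 6.37, 7.91, 6.47 and 5.94 CPM in the other enterocyte barcodes. T cell, macrophage, fibroblast and endothelial lists of 5 or 6 markers each summed to between 0.284 and 56.4 CPM, with the endothelial gene Kdr at 0. The B cell list reached 5319 CPM in ApcMin replicate 1 and 9.38 to 146 CPM elsewhere, with Ms4a1 at 0 in all 4, and the red blood cell list reached 906 CPM in ApcMin replicate 1 and 4.62 to 50.3 CPM elsewhere. In ApcMin replicate 1, 1 of the 22 members held at least 1% of its UMIs in the B cell list. How the UMIs of that list were spread over the members was not measured further. Hba-a1 was found in 19 and the Paneth cell gene Defa24 in 22 of these members. The part of all these markers in the contrasts was not tested.

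The mitochondrial limit took away many barcodes of this kind. Without it 945 barcodes met the rule, so that 574 of them (60.7%) were removed, namely 50, 45.4, 69.5 and 57.6% per library, against 32.3, 27.5, 65.7 and 35.6% of other enterocyte barcodes. Among those kept, the median mitochondrial share was 9.20, 9.59, 12.4 and 11.6% in the members and 11.0, 12.2, 13.2 and 11.3% in the other enterocyte barcodes.

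The design then asks whether these cells differed between genotypes. As a share of epithelial barcodes, members made up 1.10% in ApcMin replicate 1 (exact 95% binomial interval 0.689 to 1.66), 4.99% in VApcMinL replicate 1 (4.12 to 5.97), 7.63% in ApcMin replicate 2 (6.50 to 8.90) and 2.14% in VApcMinL replicate 2 (1.72 to 2.63). The intervals cover counting error only and did not overlap within a genotype. The mean was 4.37 ± 4.62% in ApcMin and 3.56 ± 2.01% in VApcMinL (SD, n = 2), a difference of -0.803 percentage points that lay well within the spread of libraries (two-sided exact permutation test, p = 1, with 0.333 the smallest p the design allows). Within kits the difference was 3.89 points with version 2 and -5.49 points with version 3, in opposite directions. Unsorted shares depend on how much normal villus was taken along with each tumor, and that amount and genotype cannot be told apart.

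Few genes passed the test between genotypes within the members. With the kit as a block, edgeR's quasi-likelihood test called 3 of 7377 genes, 0.0407 percent, while 302 had an unadjusted p under 0.05. Xist was the rise, with 0 and 0 UMIs in the ApcMin members against 410.1 and 107 CPM in VApcMinL replicates 1 and 2. It was at least 35.3-fold and 126-fold higher within kits when set against 3 counts (edgeR adjusted p = 5.30e-05). These are the UMIs that went against the sex label above, so sex and genotype cannot be told apart in this comparison. Hba-a1, a hemoglobin gene, fell by 4.41 ± 0.52 (adjusted p = 0.0071) with 194, 8.20, 2.27 and 0 CPM, and moved with the red blood cell list of ApcMin replicate 1. Pyy, a gut hormone gene, fell by 4.28 ± 0.53 (adjusted p = 0.00802) with 27.1, 2.73, 100.1 and 2.77 CPM, and 344 of its 352 UMIs in ApcMin replicate 2 lay in 1 member. DESeq2 did not call Xist, and without the kit as a block 0 genes were called. Refits without 1 library also dropped the kit block and left 1 library in a group, so only their effect sizes are given. Hba-a1 stood at 0.95 without ApcMin replicate 1 and at -3.17 without VApcMinL replicate 2. Pyy stood at -3.11 without ApcMin replicate 2. Of 275 genes of the lists above that could be tested, 0 were called by edgeR or DESeq2, and 14 and 8 had an unadjusted p under 0.05.

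The marker genes show the size of the spread. Ada was higher in VApcMinL within both kits, by 0.77 and 0.66 on the log2 scale, and as a gene of the rule it carries no test. Slc28a2 differed by 0.05 and -0.01, Clca4a by -0.26 and -0.08, and Gprc5a by -0.05 and -0.14. Duox2 was higher in VApcMinL by 0.89 with kit version 2 and lower, -1.70, with version 3, and Duoxa2 followed it with 0.78 and -1.58. S100g, the calcium carrier calbindin-D9k of the proximal gut, had 662 and 2048 CPM in ApcMin and VApcMinL with kit version 2. With version 3 it had 151 and 793 CPM, so it was higher in VApcMinL in both. It missed the threshold of edgeR's test (log2 fold change 2.07 ± 0.32, adjusted p = 0.0539). In VApcMinL replicate 2, 397 of its 858 UMIs lay in the member that held the most. S100g lies on the X chromosome, and sex and genotype cannot be told apart for it. The gene was named after its values were seen.

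**Figure D4:**
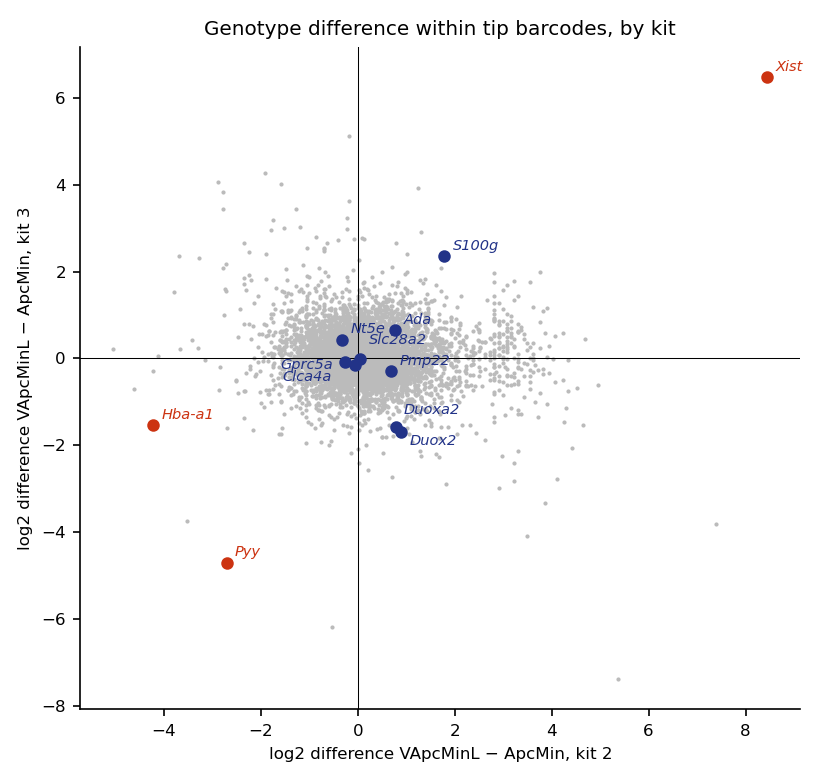
Log2 difference in CPM between VApcMinL and ApcMin members with kit version 2 (horizontal) and kit version 3 (vertical) for all 7377 genes tested. Red points passed the test and blue points are markers of the cells, Nt5e and S100g. Ada and S100g lie in the upper right, whereas Duox2 and Duoxa2 differ in opposite directions between the kits.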

How the data were processed

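The authors deposited, per library, raw matrices of UMI counts for every 10x barcode. Per the labels' processing notes, Cell Ranger 2.1.1, Seurat 3.1.1 and the build mm10 (GRCm38) were used, and how multimapped reads were treated is not given in the sources used here. No column without a sample was left (0). Libraries of kit version 2 list 27998 genes and those of version 3 list 31053, and genes outside the shared set held at most 0.568% of a library's UMIs. Total depth was 44660305 to 128247396 UMIs.

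Members, gene lists and comparison gates were chosen with earlier results of these data known. UMI counts were summed per class and library and tested with edgeR 4.0.16 (R 4.3.3): TMM scaling, filterByExpr with a minimum count of 10, glmQLFit and glmQLFTest, Benjamini-Hochberg adjustment, called at an adjusted p below 0.05. Library was the block between classes and kit the block between genotypes. The numbers pair the samples, since the labels give each replicate number its kit, and deviations of same-numbered libraries correlated over genes (r = 0.303). CPM are UMIs per 1000000 UMIs of the summed class. Scrublet was run through scanpy 1.11.5. DESeq2 1.42.0, RLE scaling, no expression filter, other limits on depth, mitochondria and rule genes, thinning, doublet removal, leaving out each library and single kits were tried, and the runs with no mitochondrial limit and with the second enterocyte gate were added after the data were seen.

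Named genes are Lef1, the markers, the 10 largest called rises and falls per comparison with the same direction in every library and at least 50 CPM in the higher class, and per list the most abundant member and the largest and smallest fold change. Further genes given with values were chosen after their values were seen. Gene positions are those of GENCODE vM21. The fits were tested on simulated counts with 200 genes changed by 1 on the log2 scale: 131 were recovered with 5 false calls against other epithelial barcodes (12799 genes), 159 with 6 against other enterocyte barcodes (9496 genes), and 67 with 1 between genotypes (7022 genes). Every simulated gene had a dispersion of 0.02, and far fewer genes changed than the class contrasts called. These counts therefore do not give the error rates of the real fits. Some genes are not reported here.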

Additional observations from a re-analysis of the deposited data

Results flagged for a closer look

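Several differences between genotypes went opposite ways in the 2 kit pairs, and the difference between kits was not tested in any of them, since each kit held 1 library of a genotype. The share of members among epithelial barcodes was 3.89 percentage points higher in VApcMinL with kit version 2 and differed by -5.49 points with version 3. Among the markers, the log2 difference between VApcMinL and ApcMin members was 0.89 and -1.70 for Duox2, 0.78 and -1.58 for Duoxa2, 0.69 and -0.28 for Pmp22, and 0.047 and -0.0063 for Slc28a2, the last being close to 0 in both. No group held enough libraries for a search for samples far from the rest.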

How the results depend on the processing

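The share difference of -0.803 points was 3.89 in the kit version 2 pair alone and -5.49 in the version 3 pair alone, and from -4.07 to 2.47 when each library was left out, being positive without ApcMin replicate 2 (2.47) or VApcMinL replicate 2 (0.621). With a mitochondrial limit of 10% it was 0.160. The 7471 calls against other epithelial barcodes were 4298 after thinning to 2000 UMIs and from 5980 to 7325 without 1 library. The 5332 calls against other enterocyte barcodes were 2452 after thinning, 2310 in the kit version 2 pair alone and from 3872 to 5304 without 1 library. Between genotypes the 3 calls became 36 with a floor of 5000 UMIs, 10 with a rule sum of at least 4, 28 with a sum of at least 10, 1 after thinning and 37 with no expression filter. The genotype refits without 1 library also dropped the kit block and left 1 library in a group, so their calls are not counted. Without the replicate block, that is with kits not paired, 0 calls were left and 120 genes stood below 0.05 unadjusted. DESeq2 called 6883, 4714 and 3.

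Of 1214 refits of 65 named genes against other enterocytes, 1186 were counted as keeping direction and call and 26 lost the call. The other 2 turned: Ccnb2 (0.55) and Hmgb2 (0.30), both with the second enterocyte gate. In these counts a refit with the same direction and no adjusted p was taken as kept. A gene that was not fitted in a setting was left out there. Defa22 lost its call without VApcMinL replicate 2 (-0.58), and Fos, Hbegf and Angptl4 lost theirs without ApcMin replicate 2 (0.45, 0.40 and -1.36). Without the library block Fabp6, Acadl, Cobl, Defa22, Fos and Hbegf were not called between tip and other enterocyte barcodes, nor were Angptl4, Apoa1, Ccnb2, Defa22, Ereg, Fos, H2-DMa, Hbegf and Id2 in the kit version 2 pair alone. All 360 refits of 20 genes against other epithelial barcodes kept theirs. Between genotypes Hba-a1 lay between -9.93 and 0.95 without 1 library and the kit block, turning without ApcMin replicate 1, and S100g was called in 6 settings. The cause was not tested. List medians over 19 settings ran from 1.37 to 1.72 for keratins and junctions, -1.90 to -0.84 for sugar and amino acid transporters and -1.50 to -0.60 for brush border hydrolases, but from -0.32 to 0.97 for lipid absorption, -0.85 to 0.83 for proximal genes, -1.78 to 1.16 for cell cycle genes, -0.53 to 0.93 for crypt and Wnt genes, -0.30 to 0.52 for purine genes, -0.046 to 0.40 for BMP genes, -1.11 to -0.056 for antigen presentation, 0.84 to 2.26 for inflammatory genes and -1.53 to -0.30 for oxidases. RLE scaling moved the median of all genes from -0.41 to -0.52 against other epithelial barcodes.

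Depth limits the work most in ApcMin replicate 1, whose 22 members could not show Lef1 below 11.6 CPM. Free RNA can add to low levels in the other enterocytes, and its amount was not measured here. The mitochondrial limit removed more of the tip barcodes than of the others.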
